A study of Mus musculus with 4 samples.

Results

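The nuclear genes of oxidative phosphorylation were taken as every gene symbol in the table that begins with Ndufa, Ndufb, Ndufc, Ndufs, Ndufv, Uqcr, Cox4 to Cox8 or Atp5, or that is Sdha, Sdhb, Sdhc or Sdhd. The rule found 93 of the 24497 mouse entries. They comprise 36 complex I subunits, 8 complex I assembly factors, 4 complex II, 8 complex III, 19 complex IV and 15 complex V subunits, the supercomplex factor Cox7a2l, and Atp5s and Atp5sl, which carry an Atp5 symbol but are not subunits. Ndufa4 and Ndufa4l2 were counted with complex IV.

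RNA-seq was measured in mouse acute myeloid leukemia cells made from hematopoietic stem cells of the bone marrow. The 2 libraries labelled Tet2 KO came from cells of Tet2-/- mice, which lack exons 8 to 10 of Tet2, a dioxygenase that oxidises 5-methylcytosine, and the 2 libraries labelled WT came from cells of wild-type mice. Cells of both groups carry NRAS and AE9a, a truncated AML1-ETO fusion, and both were grown in RPMI medium with SCF, IL-3 and IL-6 under G418 and puromycin. The labels do not say whether the libraries of a group came from separate cultures, clones or animals, so the spread behind the p-values is that between libraries and may be of technical origin.

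Tet2 itself stood at 53.5 and 52.8 TPM (a transcript abundance corrected for transcript length and scaled to the same total in every library) in the KO-labelled libraries, against 35.05 and 39.95 TPM in the WT libraries. It was thus higher where the label says that it is disrupted, with a log2 change of 0.50 (SE 0.067, limma adjusted p = 0.0054), a call lost when either KO-labelled library was left out. A value per gene also counts reads outside the deleted exons and does not check the deletion, so every direction below goes by the labels. Between 11612 and 11712 genes reached 1 TPM per library, and the depth in reads is unknown. Of 10 hematopoietic and leukemia identity genes, 9 were kept for testing, among them Ptprc, Cd34, Mpo and Kit. Of the 9, 4 were called higher and 2 lower in the KO-labelled libraries, and Flt3 was below 1 TPM in every library. All 14 granulocyte maturation genes were called lower in the KO-labelled libraries. Their summed levels were 24295 and 24597 TPM there, against 47928 and 47308 TPM in WT. Of 10 macrophage genes, 8 were called lower and 1 higher. Over all tested genes, 18.9% were called higher and 11.6% lower.

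Oxidative phosphorylation couples the oxidation of fuels to the making of ATP in the inner mitochondrial membrane. Complex I takes electrons from NADH and complex II from succinate, both pass them to ubiquinone, complex III moves them to cytochrome c, and complex IV reduces oxygen to water. The proton gradient that builds up drives complex V, the ATP synthase. Nuclear genes encode most of the subunits, mitochondrial DNA encodes a few core ones, and several complex IV subunits exist as a widespread isoform and an isoform that is prominent in muscle, lung or testis. Leukemic stem cells in acute myeloid leukemia have been described as dependent on this pathway.

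Most of these genes differed little between the groups. Of the 93 members, 89 reached 1 TPM in at least 2 libraries and were tested. Of these, 14 (15.7%) were called at an adjusted p under 0.05, against 30.5% of all 11837 tested genes. Of the members, 9 were higher in the KO-labelled libraries (18.9% of all genes were) and 5 were lower (11.6% of all genes were). The groups did not overlap for 46 members (51.7%), against 68.6% of all genes. The median log2 change of the members was 0.02, and that of all tested genes was 0.04. The change was under 0.3 in size for 85 of the 89 members (95.5%), against 79.7% of all tested genes. The 4 beyond that size were Cox4i2, Cox6a2 and Cox6b2, which were higher, and Ndufs5, which was lower. With either of the KO-labelled libraries left out in turn, 3 members were called higher and 1 lower. Without WT replicate 1 the counts were 10 and 1, and without WT replicate 2 they were 8 and 10.

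The split between higher and lower calls moved with the scaling between libraries, while the largest changes did not. The members gave 7 higher and 9 lower calls with trimmed-mean scaling, 8 and 8 with quantile scaling, 8 and 11 after rescaling without the granulocyte genes, 8 and 10 after removing the trend with transcript length and GC content, and 3 and 3 with scaling to the ERCC spike-ins. Over all tested genes, 62% of calls were higher as deposited, against 29.9% with spike-in scaling. That scaling moved the median of all genes to -0.07 and that of the members to -0.1. It called 17.8% of all tested genes, against 30.5% as deposited, and 6.74% of the members. The spike-ins held 3.414% and 3.385% of TPM in the KO-labelled libraries, against 2.976% in WT replicate 1 and 3.304% in WT replicate 2. Fewer of all tested genes were called when any single library was left out, so a call lost there is not particular to these members. The members went the other way without WT replicate 2, where more of them were called than with all libraries. In bulk RNA, a difference in the number of cells of a type and a difference in RNA per cell cannot be told apart.

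**Figure D1:**
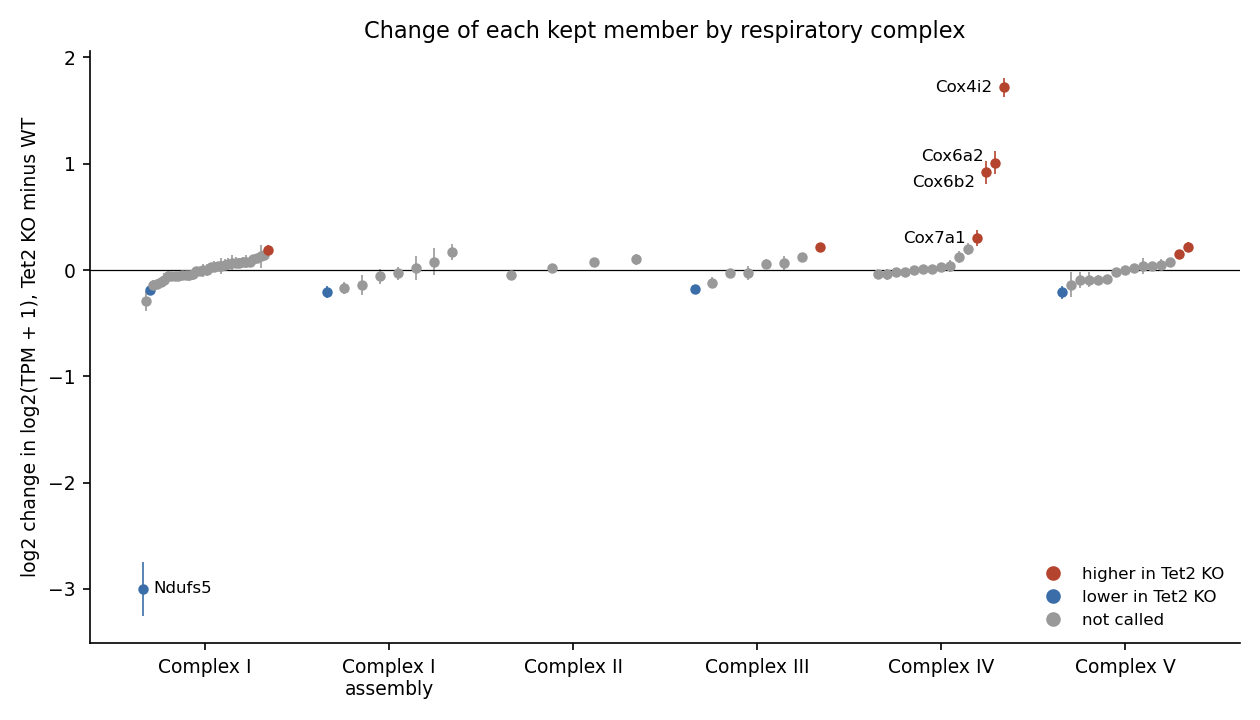
Change of each tested member, by complex, as the difference in log2(TPM + 1) between KO-labelled and WT libraries (points; bars are the limma standard error; 2 libraries per group). Cox7a2l, Atp5s and Atp5sl are not drawn, which leaves 86 points. All but the named points lie within 0.3 of the line at 0, and Ndufs5 is listed at 0 TPM in both KO-labelled libraries, so its depth on the axis depends on the pseudocount of 1.

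These transcripts were abundant and short. The median member averaged 154 TPM over the 4 libraries, against 22.1 TPM for all tested genes, and 58 of 89 members averaged at least 100 TPM. The median transcript length was 693.5 nucleotides for the tested members, against 2017 for all tested genes. Together the 93 members made up 1.65% to 1.73% of all TPM. Their sum was 16964 and 17185 TPM in the KO-labelled libraries, against 17265 and 16500 TPM in the WT libraries, so the groups overlapped. The WT libraries lay farther apart than the group means did: WT replicate 1 was above WT replicate 2 for 71 of the 89 tested members (79.8%, against 38.4% of all tested genes), and their sums differed by 4.64%.

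By complex, the summed level of the subunits differed little. The complex I sum averaged 4338 ± 13.1 TPM in the KO-labelled libraries and 4328 ± 148 TPM in WT (SD, n = 2 each). The complex III sum averaged 1653.5 ± 0.0778 TPM in the KO-labelled libraries and 1651.6 ± 68.2 TPM in WT. The complex V sum averaged 5618 ± 94.7 TPM in the KO-labelled libraries and 5602 ± 217 TPM in WT. All these ranges overlapped, as did those of complex IV, at 4273 ± 54.3 TPM in the KO-labelled libraries and 4174 ± 107 TPM in WT. Complex II was the exception, with 649.3 and 641.6 TPM in the KO-labelled libraries, against 619.0 and 632.6 TPM in WT, a mean 3.14% higher. That order depended on the scaling: with spike-in scaling the KO-labelled mean fell by 4.94% relative to WT, at 621.0 and 618.8, against 679.0 and 625.2 in WT, and with trimmed-mean scaling or without the granulocyte genes the groups overlapped. An exact permutation test of 2 libraries against 2 cannot give a p below 0.33, and the sums by complex were not tested in another way.

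**Figure D2:**
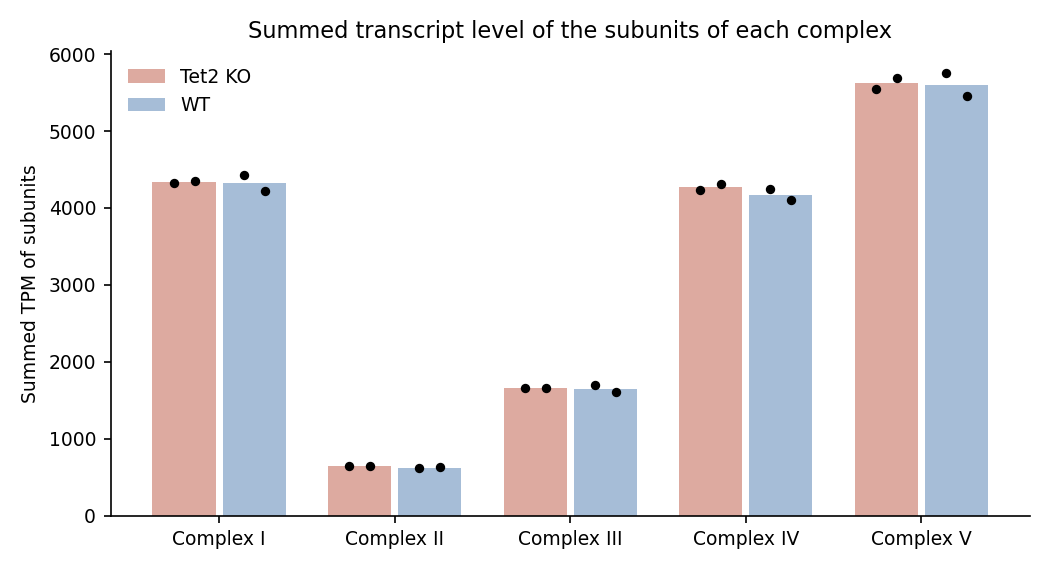
Summed TPM of the subunits of complexes I to V in each library (dots) with the group mean (bars from 0; KO-labelled left, WT right; 2 libraries each). The dots of the groups overlap for every complex but complex II, with 649.3 and 641.6 TPM in the KO-labelled libraries and 619.0 and 632.6 TPM in WT, an order that turns with spike-in scaling.

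Complex I held 1 higher and 2 lower subunits among 36, with a median log2 change of 0.00. The share called was 8.33%, against 30.5% of all tested genes. Its most abundant transcripts were Ndufv3, Ndufb8, Ndufa6 and Ndufa3. Ndufv3, an accessory subunit of the NADH-oxidising module, stood at 300.9 and 305.9 TPM in the KO-labelled libraries, against 304.8 and 290.6 TPM in WT. Ndufa6, an accessory subunit of the LYR family, stood at 240.8 and 227.4 TPM in the KO-labelled libraries, against 209.6 and 200.5 TPM in WT. The groups did not overlap, and the log2 change was 0.19 (SE 0.043, adjusted p = 0.026). Ndufb7, an accessory subunit with paired CX9C cysteines, was lower at 174.8 and 178.9 TPM in the KO-labelled libraries, against 211.0 and 193.7 TPM in WT. Its log2 change was -0.19 (SE 0.049, adjusted p = 0.035). Ndufa5 had the largest change of any member not called, -0.29 (adjusted p = 0.061). Ndufb8 and Ndufa3 had changes of -0.06 and 0.03. Among the 8 assembly factors, which build complex I without staying in it, Ndufaf3 alone was called, with 22.8 and 22.1 TPM in the KO-labelled libraries, against 27.3 and 25.1 TPM in WT (log2 change -0.21, SE 0.057, adjusted p = 0.042). It shares 48 exon bases with Impdh2 on the opposite strand. Impdh2 stood at 276.9 and 288.1 TPM in the KO-labelled libraries, against 238.7 and 232.25 TPM in WT. Strand use in the counting was not given in the sources used here, and the part of the overlap was not tested. No call among these genes held when either KO-labelled library was left out, and those of Ndufb7 and Ndufaf3 were also lost without WT replicate 1, and that of Ndufa6 without WT replicate 2. With spike-in scaling Ndufa6 and Ndufb7 were not called, nor was Ndufa6 with trimmed-mean scaling.

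Ndufs5, an accessory subunit of the membrane arm, was listed at 0 in both KO-labelled libraries and at 9.43 and 5.11 TPM in the WT libraries (adjusted p = 0.0014). It passed the filter through the WT libraries alone, and the size of a change against a group at 0 depends on the pseudocount. The gene lies at chr4:123712710-123718202 on the minus strand (GRCm38). Its transcript has a near-identical copy elsewhere: BC002163, annotated as a processed pseudogene at chr16:42955631-42955949 on the plus strand, matches 319 bases of an Ndufs5 transcript at 99.4% identity. BC002163 stood at 116.7 and 115.3 TPM in the KO-labelled libraries, against 123.3 and 108.4 TPM in WT, with overlapping groups (log2 change 0.00, adjusted p = 0.96). So most of the level assigned to this sequence was assigned to the copy in every library, and Ndufs5 took 7.1% and 4.5% of it in the WT libraries. Summed over both, the level was 117 and 115 TPM in the KO-labelled libraries, against 133 and 113 TPM in WT. The sum was not called (log2 change -0.08, SE 0.075, adjusted p = 0.45), an alternative chosen after the values were seen. The value of Ndufs5 alone is therefore uncertain, since reads that fit both sequences are divided by the estimator. Its fitted log2 change ran from -6.14 with a pseudocount of 0.1 to -1.27 with a pseudocount of 5.

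**Figure D3:**
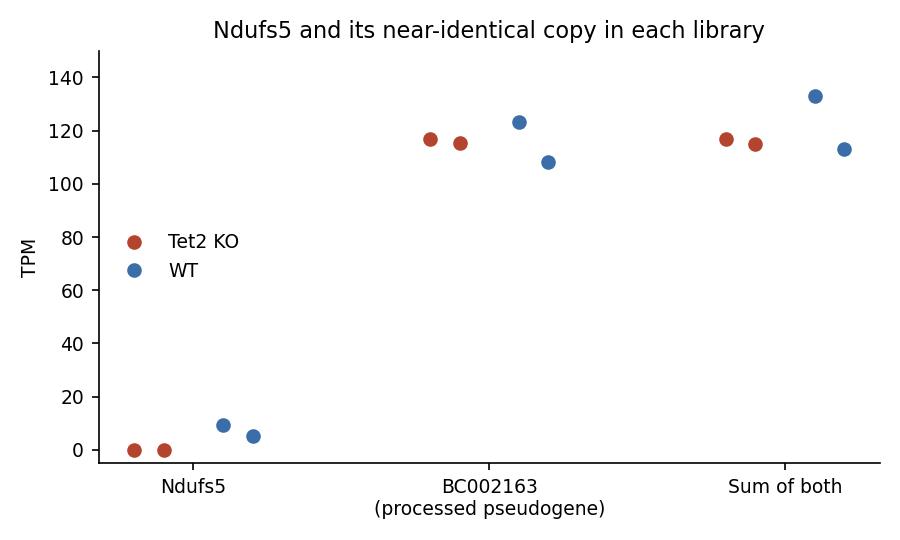
TPM of Ndufs5, of its near-identical processed pseudogene BC002163 and of their sum, with 1 point per library (KO-labelled left, WT right). Ndufs5 is at 0 in both KO-labelled libraries and at 9.43 and 5.11 TPM in WT, while the sums lie between 113 and 133 TPM and overlap.

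None of the 4 complex II subunits was called, with log2 changes of -0.05 to 0.10. This complex is succinate dehydrogenase, which also serves the tricarboxylic acid cycle. Sdhd, a membrane anchor, stood at 204.0 and 209.7 TPM in the KO-labelled libraries, against 198.2 and 192.2 TPM in WT (log2 change 0.08, adjusted p = 0.13). Sdhc, the other anchor, stood at 164.6 and 157.8 TPM in the KO-labelled libraries, against 144.7 and 156.3 TPM in WT (0.10, adjusted p = 0.18). For both genes the groups did not overlap. Sdha, the flavoprotein, and Sdhb, the iron-sulfur subunit, overlapped between groups, with changes of 0.02 and -0.05.

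In complex III, 1 of 8 subunits was higher and 1 lower (25% called, against 30.5% of all tested genes). Uqcrc2, a core protein, stood at 160.2 and 161.5 TPM in the KO-labelled libraries, against 138.3 and 138.3 TPM in WT. Libraries of a group lay closer together than the groups did, and the log2 change was 0.22 (SE 0.031, adjusted p = 0.0063). Uqcrb, the ubiquinone-binding protein, stood at 237.0 and 245.9 TPM in the KO-labelled libraries, against 282.7 and 266.4 TPM in WT. Its groups did not overlap either, and the log2 change was -0.18 (SE 0.042, adjusted p = 0.026). Uqcrh, the hinge protein and the most abundant of the complex, had a log2 change of 0.06, and Uqcr10 and Uqcr11 of -0.03 each, none of them called. Both calls were lost when either KO-labelled library was left out and with spike-in scaling, and that of Uqcrb also without WT replicate 1.

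Complex IV, cytochrome c oxidase, held the largest increases, and all 4 of its called subunits were the minor isoforms of their pairs. Of its 15 tested subunits 26.7% were called, against 30.5% of all tested genes. Cox4i2 (chr2:152754173-152765037 on GRCm38, plus strand), the isoform of the regulatory subunit 4 that is prominent in lung, stood at 30.6 and 25.65 TPM in the KO-labelled libraries, against 7.90 and 7.74 TPM in WT. The lowest KO-labelled library was above the highest WT library, with a mean of 28.1 ± 3.5 TPM in the KO-labelled group and 7.82 ± 0.113 TPM in WT (SD, n = 2 each), a log2 change of 1.72 (SE 0.09, adjusted p = 0.00033). Cox6a2 (chr7:128205435-128206387, minus strand), the heart and skeletal muscle isoform of subunit 6a, stood at 5.74 and 6.19 TPM in the KO-labelled libraries, against 2.71 and 2.20 TPM in WT. Its log2 change was 1.01 (SE 0.109, adjusted p = 0.0027), and it shares 70 exon bases with Itgad on the opposite strand, which stood at 0.15 TPM or less in every library. Cox6b2 (chr7:4751792-4753094, minus strand), the testis isoform of subunit 6b, stood at 9.14 and 10.6 TPM in the KO-labelled libraries, against 5.15 and 4.31 TPM in WT, a log2 change of 0.92 (SE 0.109, adjusted p = 0.0035). These 3 were called in all 17 other fits (other filters, pseudocounts, variance models, scalings, blocks and libraries), with log2 changes of 1.37 to 1.84 for Cox4i2, 0.56 to 1.25 for Cox6a2 and 0.61 to 1.05 for Cox6b2. Cox7a1 (chr7:30184144-30186078, plus strand), the heart and skeletal muscle isoform of subunit 7a, stood at 10.5 and 11.9 TPM in the KO-labelled libraries, against 8.96 and 8.89 TPM in WT. Its log2 change was 0.30 (SE 0.077, adjusted p = 0.038), and the call held in 7 of the 17 other fits, not in any that left out a library.

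The widespread isoform of each of these pairs was not called. Cox4i1 stood at 688.9 and 687.0 TPM in the KO-labelled libraries, against 722.5 and 672.0 TPM in WT, and Cox6a1, Cox6b1 and Cox7a2 likewise overlapped between groups. The log2 changes of the 4 ran from -0.04 to 0.04. On the TPM scale, the minor isoforms summed to 56.0 and 54.3 TPM in the KO-labelled libraries, against 24.7 and 23.1 TPM in WT, a ratio of 2.3. They are the same 4 subunits that were called higher, so their sum is no separate result. Cox4i2 averaged 28.1 TPM of a mean sum of 55.2 TPM in the KO-labelled group, and 7.82 of 23.9 TPM in WT. The widespread isoforms summed to 1763 and 1820 TPM in the KO-labelled libraries, against 1857 and 1760 TPM in WT. The share of Cox4i2 in the Cox4 pair was 4.25% and 3.6% in the KO-labelled libraries, against 1.08% and 1.14% in WT. For Cox6a2 in its pair it was 1.29% and 1.34% in the KO-labelled libraries, against 0.571% and 0.487% in WT. Cox6b2 took 2.05% and 2.22% in the KO-labelled libraries, against 1.11% and 0.952% in WT. The share of Cox7a1 was 5.09% and 5.37% in the KO-labelled libraries, against 4.18% and 4.48% in WT. In each pair the minor isoform thus remained the smaller part in every library, and the shares of the groups did not overlap.

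**Figure D4:**
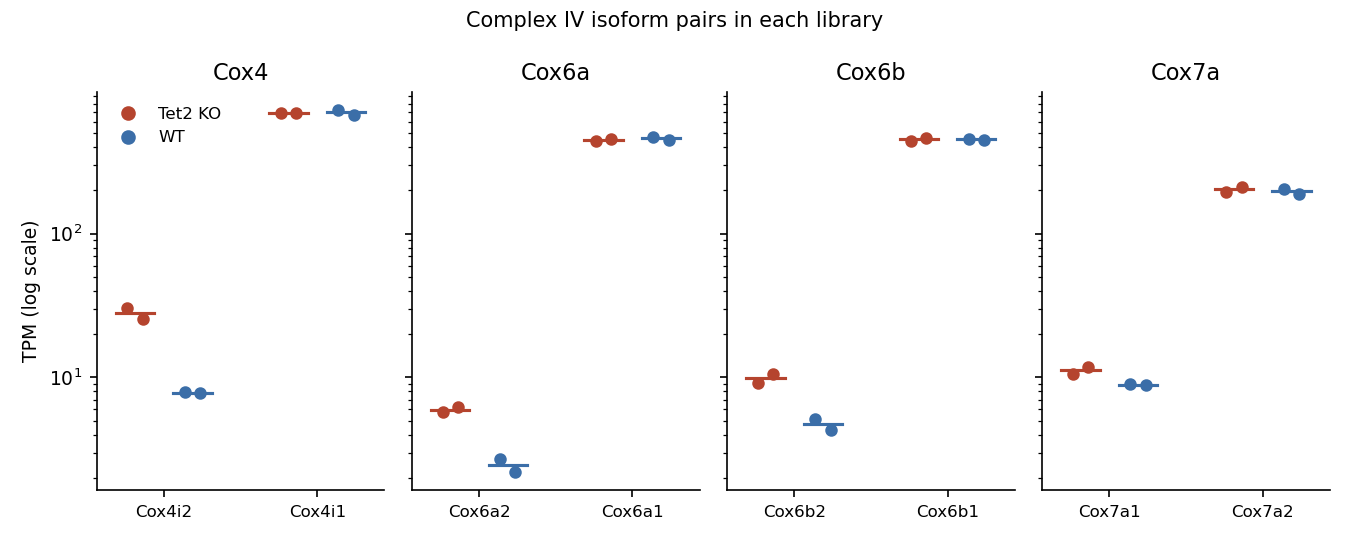
TPM on a log axis of the minor (left) and widespread (right) isoform of the complex IV subunits 4, 6a, 6b and 7a in each library (points; lines are group means; KO-labelled left of WT). The minor isoforms of the KO-labelled libraries lie above those of WT without overlap, while the widespread isoforms, between 189 and 722.5 TPM, overlap.

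The other tissue-restricted complex IV genes were at or near 0. Cox7b2 and Cox8c, both known from testis, were listed at 0 in all 4 libraries. Cox8b, the muscle isoform of subunit 8, was at 0.29 TPM in KO-labelled replicate 1 and at 0 in the others, and Ndufa4l2, a hypoxia-induced relative of Ndufa4, reached 0.18 TPM at most. Cox8a, the widespread isoform, stood at 434.5 and 445.8 TPM in the KO-labelled libraries, against 361.5 and 404.9 TPM in WT. With a log2 change of 0.20 and an adjusted p of 0.05004 it fell just outside the threshold. Apart from the minor isoforms, none of the 11 tested complex IV genes was called, Ndufa4 included, which stood between 299.4 and 301.6 TPM in all libraries. Cox7a2l, which joins complexes III and IV in supercomplexes, was higher at 390.6 and 386.2 TPM in the KO-labelled libraries, against 344.9 and 336.7 TPM in WT (log2 change 0.19, SE 0.031, adjusted p = 0.0099). That call was lost with spike-in scaling and when either KO-labelled library was left out.

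Markers of the tissues that give some isoforms their names were at or near 0 in both groups. Of 12 striated muscle genes, 8 were listed at 0 in all libraries and the highest value of any was 1.55 TPM. Their sums were 0.95 and 1.22 TPM in the KO-labelled libraries, against 1.66 and 2.35 TPM in WT. Of 8 testis germ cell genes, 4 were listed at 0 in all libraries and the highest value was 0.47 TPM. Their sums were 0.25 and 0.69 TPM in the KO-labelled libraries, against 0.06 and 0.13 TPM in WT, with none of the 8 high enough to be tested, and their part in the difference of the testis isoform Cox6b2 was not tested. Both lists were chosen after the values were seen. The drop of the granulocyte and macrophage genes given above moved with the same groups, and its part in the isoform differences was not tested.

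The promoters of the minor and widespread isoforms can be set side by side for subunits 6b and 7a, the pairs for which RefSeq sequence was at hand. They show the windows of a called and an uncalled isoform of each pair, with their CpG content as a description. Methylation was not measured, and the promoters of Cox4i2 and Cox6a2, which had the largest increases, are not shown. Each runs 5′ to 3′ from 250 bases before to 50 bases after the RefSeq start on GRCm38.p6, with CpG in capitals.
Cox6b2 promoter (chr7:4753045-4753344, minus strand): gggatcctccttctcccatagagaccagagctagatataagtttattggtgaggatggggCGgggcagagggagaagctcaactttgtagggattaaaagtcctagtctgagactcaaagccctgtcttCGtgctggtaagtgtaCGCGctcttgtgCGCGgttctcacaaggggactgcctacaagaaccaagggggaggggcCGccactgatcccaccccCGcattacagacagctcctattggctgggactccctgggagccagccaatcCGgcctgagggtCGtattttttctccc
Cox6b1 promoter (chr7:30626065-30626364, minus strand): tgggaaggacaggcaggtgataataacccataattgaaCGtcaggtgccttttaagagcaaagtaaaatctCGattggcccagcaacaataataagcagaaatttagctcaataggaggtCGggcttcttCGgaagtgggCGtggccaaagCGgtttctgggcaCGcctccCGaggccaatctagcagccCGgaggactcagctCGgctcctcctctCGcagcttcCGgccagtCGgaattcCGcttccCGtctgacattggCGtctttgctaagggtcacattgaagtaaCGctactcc
Cox7a1 promoter (chr7:30183921-30184220, plus strand): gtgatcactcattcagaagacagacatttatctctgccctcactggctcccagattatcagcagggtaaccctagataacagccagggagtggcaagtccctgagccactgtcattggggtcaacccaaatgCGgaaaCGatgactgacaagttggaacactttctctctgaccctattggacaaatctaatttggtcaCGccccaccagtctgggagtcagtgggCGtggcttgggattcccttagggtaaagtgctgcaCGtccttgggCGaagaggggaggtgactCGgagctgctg
Cox7a2 promoter (chr9:79759804-79760103, minus strand): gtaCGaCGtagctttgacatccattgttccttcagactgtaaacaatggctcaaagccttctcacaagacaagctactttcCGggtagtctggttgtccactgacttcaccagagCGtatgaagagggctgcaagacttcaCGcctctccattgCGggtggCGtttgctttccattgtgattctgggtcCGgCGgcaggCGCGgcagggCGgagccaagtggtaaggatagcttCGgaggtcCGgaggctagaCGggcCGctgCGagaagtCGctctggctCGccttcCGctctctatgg
The Cox6b2 window holds 10 CpG, against 17 in that of Cox6b1. The Cox7a1 window holds 7, against 20 in that of Cox7a2. Among Cox subunit symbols with a sequence, the 4 restricted isoforms Cox6b2, Cox7a1, Cox7b2 and Cox8b held 2 to 10 CpG with a median of 8.5, against 5 to 35 with a median of 19.5 for the 8 other Cox subunits. Cox7b2 and Cox8b, at or near 0 TPM in all libraries, are thus low in CpG as well. So is Cox7b, one of the 8 others and not called, whose 5 CpG are fewer than those of Cox6b2 or Cox7a1. The median was 20 over the 77 members with a sequence, 21 over the promoters of all tested genes, and 7 over all 27025 promoters.

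Searched on both strands, the letters TGCGCA, the core of the NRF1 site, occurred in 19 of the 77 member windows (24.7%), against 14.9% of the promoters of tested genes and 8.1% of all promoters. AAGATGGC, a YY1 site, occurred in 15.6% of the members, 5.1% of the promoters of tested genes and 2.9% of all promoters. CCGGAAG, an ETS site of the kind bound by GABP, occurred in 23.4% of the members, 19.3% of the promoters of tested genes and 9.1% of all promoters. TGGGAA, the core of the RBPJ site, occurred in 19.5% of the members, 22.9% of the promoters of tested genes and 25.5% of all promoters. NRF1, GABP and YY1 are known regulators of nuclear respiratory genes. A match of letters is a description and not a binding site.

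Complex V, the ATP synthase, held 2 higher and 1 lower subunit among 15, with a median log2 change of 0.00. The share called was 20%, against 30.5% of all tested genes. Atp5b, the catalytic beta subunit, had the highest level of all members at 1007 and 1028 TPM in the KO-labelled libraries, against 983 and 941 TPM in WT (log2 change 0.08, adjusted p = 0.14). Atp5a1, the alpha subunit, and Atp5l, subunit g, were not called, at 0.04 and -0.09. Atp5g2, 1 of the 3 genes that encode subunit c of the membrane ring, stood at 512.3 and 500.4 TPM in the KO-labelled libraries, against 416.8 and 450.0 TPM in WT. The groups did not overlap, and the log2 change was 0.22 (SE 0.045, adjusted p = 0.018). Atp5g3 stood at 371.0 and 386.9 TPM in the KO-labelled libraries, against 414.0 and 394.3 TPM in WT (-0.09, adjusted p = 0.14), and Atp5g1 overlapped between groups. The share of Atp5g2 in the sum of the 3 genes was 49.2% and 47.8% in the KO-labelled libraries, against 42.0% and 45.0% in WT. Atp5c1, the gamma subunit of the central stalk, stood at 241.7 and 240.2 TPM in the KO-labelled libraries, against 213.3 and 219.8 TPM in WT (0.15, SE 0.032, adjusted p = 0.021). Atp5k, subunit e, was just inside the threshold with 218.0 and 240.3 TPM in the KO-labelled libraries, against 275.8 and 255.5 TPM in WT (-0.21, SE 0.061, adjusted p = 0.04972). Atpif1, the inhibitor of the synthase, had a log2 change of 0.12 (adjusted p = 0.051). The calls of Atp5g2, Atp5c1 and Atp5k were lost when either KO-labelled library was left out, those of Atp5c1 and Atp5k also without WT replicate 1, and that of Atp5k also without WT replicate 2. None of the 3 was called with spike-in scaling. All 3 have near-identical copies elsewhere in the genome, and how reads that fit a copy were assigned is unknown.

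The tricarboxylic acid cycle feeds the chain with NADH and succinate. Of 19 cycle and pyruvate-entry genes, 6 were higher and 1 lower, with a median log2 change of 0.10. The share called was 36.8%, near the 30.5% of all tested genes. With spike-in scaling the counts were 1 and 0, and they were 2 and 0 without KO-labelled replicate 1 and 1 and 0 without KO-labelled replicate 2. Pcx, pyruvate carboxylase, stood at 8.33 and 8.60 TPM in the KO-labelled libraries, against 4.59 and 5.03 TPM in WT (0.70, adjusted p = 0.0028). Idh2, which makes 2-oxoglutarate, the cosubstrate of Tet2, stood at 248.1 and 252.4 TPM in the KO-labelled libraries, against 208.6 and 206.2 TPM in WT (0.27, adjusted p = 0.0033). Idh3g and Pdha1, a subunit of NAD-dependent isocitrate dehydrogenase and one of pyruvate dehydrogenase, changed by 0.27 and 0.23, both called. Idh3b and Suclg2 were higher too, by 0.20 and 0.25, and Ogdh was the lower gene (-0.16, adjusted p = 0.046), 3 genes named after their values were seen. The groups did not overlap for any of these genes. Pcx was called in all 17 other fits, while the calls of Idh3g and Pdha1 were lost when either KO-labelled library was left out and that of Idh2 without KO-labelled replicate 2.

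Of 20 genes for ubiquinone, cytochrome c and other electron carriers, 4 were higher and 4 lower, with a median of 0.02. The share called was 40%, against 30.5% of all tested genes, and the difference was not tested. Leaving out a library left 0 or 1 higher and 0 to 2 lower. Cycs, the somatic cytochrome c, stood at 44.3 and 42.55 TPM in the KO-labelled libraries, against 51.8 and 58.5 TPM in WT (-0.34, adjusted p = 0.017). Coq7, a hydroxylase of ubiquinone synthesis, was lower too (-0.45, adjusted p = 0.0084), and Coq3, a methyltransferase of the same route, and Gpd2, which passes electrons from glycerol 3-phosphate to ubiquinone, were higher at 0.31 and 0.19. Named after their values were seen, Coq8a and Coq2 were the other higher genes and Coq10b and Coq4 the other lower ones. With spike-in scaling 0 were higher and 4 lower. Of 43 tested assembly factors beyond those matched by symbol, 4 were higher and 0 lower, namely Cox14, Surf1, Cox20 and Ttc19 with changes of 0.22 to 0.26 (9.3% called), against 0 higher and 2 lower with spike-in scaling. Without KO-labelled replicate 2 none of these factors was called, without KO-labelled replicate 1 the counts were 1 higher and 0 lower, without WT replicate 1 they were 1 and 1, and without WT replicate 2 there were 3 higher and 4 lower. None of the 13 symbols sought for subunits encoded by mitochondrial DNA was listed among the deposited values, so these subunits were not analysed here.

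Of 21 regulators of mitochondrial gene expression, 2 were higher and 0 lower (9.52% called, against 30.5% of all tested genes), with a median of 0.07, and none was called with spike-in scaling, or when either KO-labelled library was left out. With either WT library left out, 1 was higher. Gabpb1, a subunit of GABP, stood at 41.7 and 40.8 TPM in the KO-labelled libraries, against 33.3 and 34.6 TPM in WT (0.27, adjusted p = 0.0083). Tefm, a mitochondrial transcription elongation factor, changed by 0.24 and was called, and Nrf1 was not, at 0.07 (adjusted p = 0.28). Among 6 genes reported elsewhere to bear on Cox4i2 or on its exchange with Cox4i1, 2 were higher and 1 lower. The share called was 50% of these few genes, against 30.5% of all tested genes, and the difference was not tested. Rbpj stood at 228.0 and 230.8 TPM in the KO-labelled libraries, against 184.1 and 199.4 TPM in WT (0.26, adjusted p = 0.012). Lonp1, a protease reported in human cells to degrade the Cox4i1 protein, was higher (0.16, adjusted p = 0.03), Epas1 was lower (-0.53, adjusted p = 0.023) at 1.79 and 1.78 TPM in the KO-labelled libraries, against 2.76 and 3.32 TPM in WT, and Hif1a, Chchd2 and Cxxc5 overlapped between groups with changes of -0.01 to 0.07. The calls of Rbpj, Lonp1 and Epas1 were lost when either KO-labelled library was left out, and those of Lonp1 and Epas1 also without WT replicate 2. With spike-in scaling 0 of the 6 were higher and 1 was lower, and Lonp1 was not called with trimmed-mean or quantile scaling either.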

How the data were processed

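The authors deposited a single table of values for the 4 libraries, used here as TPM because each column sums to 1000000. The aligner STAR, the estimator RSEM and the build mm10 are named per the submitters' processing notes. Versions, annotation and strand setting are not given in the sources used here. TPM keep no depth, so no counting interval is given, and the 2 libraries per group limit the precision. Groups and replicate numbers came from the labels.

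No test included the 92 ERCC spike-ins. The 11837 genes that reached 1 TPM in 2 or more libraries were compared on log2(TPM + 1), KO-labelled minus WT, with limma 3.58.1 in R 4.3.3 (variance trend, no replicate block, 2 residual and 3.51 prior degrees of freedom). P-values are two-sided and adjusted by the Benjamini-Hochberg method over all kept genes, and every adjusted p in the text comes from such a fit. Fold changes on this scale understate those of low genes. The fit was tested on simulated data.

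The members, lists and tests were chosen with earlier results of these data known. Named were all detected isoform pairs, the 4 highest members of each complex, up to 5 called members per complex and direction, members at 0 in a library, those beside the threshold, and up to 4 genes of each list. Of the cell type lists, the 9 eosinophil genes had 3 tested (1 higher, 2 lower), the 9 mast cell and basophil genes 8 (1 and 5), the 10 erythroid genes 3 (2 and 0) and the 12 lymphoid genes 3 (2 and 1).

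Alternatives were a replicate block, other filters, pseudocounts, variance models, scalings and thresholds, and leaving out each library. Chosen after seeing the data were a crossed pairing, summing near-identical copies, leaving out symbols that are not subunits, and the muscle and testis lists. Copies were sought with BLAST 2.17.0 at 90% identity over 50% of a transcript. Coordinates are from GENCODE on GRCm38, the mm10 assembly, and promoters from RefSeq on GRCm38.p6, which held 77 of 93 members.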

Additional observations from a re-analysis of the deposited data

How the results depend on the processing

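Cox4i2, Cox6a2 and Cox6b2 kept their direction and their call in 17 other fits and with copies summed. Ndufs5, which passed the filter through the WT libraries alone, was not called with its copy summed (adjusted p = 0.45). No called value of a named gene changed sign in any of these fits. Of 1114 values of 62 named genes in other fits, 959 stayed on the same side of the threshold, 143 lost the call and 12 gained it. The 959 include genes called in neither fit, while the 143 come only from genes called in the main fit. A further description is that 57 changed sign without being called in either fit. The 9 higher and 5 lower calls became 10 and 2 with the replicate block. With no filter on low values 1 lower call was left, and Atp5g2, Cox7a1 and Ndufa6 were no longer called higher. The share called there was 7.69% of the members and 15.6% of all genes. The counts were 5 and 1 without a variance trend and 5 and 1 at an adjusted p under 0.01. With a log2 change of at least 0.3 they were 3 and 1. Lower calls numbered 9 with trimmed-mean scaling, 11 after rescaling without the granulocyte genes, 8 with quantile scaling and 10 without the length and GC trend, and spike-in scaling left 3 and 3. The median of 0.02 became -0.03 with trimmed-mean scaling and without the length and GC trend, -0.02 without the granulocyte genes and -0.1 with spike-in scaling. The log2 ratio of the summed levels, 0.02, became -0.03 with trimmed-mean scaling and -0.1 with spike-in scaling. The cause of these shifts was not tested. Leaving out 1 library gave 3 to 10 higher and 1 to 10 lower calls, a median of -0.01 to 0.03, a log2 ratio of sums of -0.02 to 0.05 and a Cox4i2 share 2.49 to 3.14 percentage points higher, against 2.82. The lone library of a group was then assumed to vary like the others. Over all genes, 62% of calls were higher, against 48.6% with trimmed-mean scaling, 54.2% with quantile scaling, 52.1% without the granulocyte genes and 48.2% without the length and GC trend. Deviations of same-numbered libraries from their group means correlated at -0.11 over 11837 genes. With 2 libraries per group, that value cannot show whether same-numbered libraries were paired, so any pairing is unknown. The crossed pairing, chosen after seeing the data, gave 11 higher and 5 lower calls. Depth is unknown, which limits low genes such as Cox6a2 most.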

Other observations

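Near-identical copies were common among these genes: 25 of the 93 members had a match of at least 90% identity over at least 50% of a transcript. Genes that share exon bases with the member at its own locus were not counted as copies. Copies listed in the table itself were found for 2 members, Ndufs5 and Cox7c. The called members Atp5g2, Atp5c1, Atp5k, Ndufb7 and Uqcrb have copies too, but none with a listed value. The closest matched at 100% identity for Atp5g2 and 98.2% for Uqcrb. How reads that fit such a copy were assigned is unknown, so the small changes of these members carry that limit. For Cox7c, an inner-membrane subunit of complex IV, the copy Gm10012 stood at 77.6 and 36.0 TPM in the KO-labelled libraries, against 35.9 and 64.2 TPM in WT, so that it varied more within than between groups. The sum of Cox7c and Gm10012 was 450 and 417 TPM in the KO-labelled libraries, against 402 and 392 TPM in WT, and was not called (log2 change 0.13, SE 0.045, limma adjusted p = 0.085). In addition, 32 members share exon bases with another gene.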
